A study of Mus musculus with 4 samples.

Results

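The genes described here are 44 genes of proximal T cell receptor signalling, the steps that carry a signal from the engaged receptor to its first intracellular effectors. They were taken by symbol from a table of 18560 genes, all 44 had a line in it, and all 44 passed the filter on low counts that left 12816 genes to test. By known role, 29 were counted as activators, 13 as inhibitors and 2 (Ptprc and Sh2d2a) as acting in both directions. The cells were naive CD4+ T cells from the spleens of C57BL/6 mice, activated in culture through CD3 and CD28 to give Th0 cells, helper T cells not steered toward an effector type. One group held 2 libraries labelled wild type, replicates 1 and 6, and the other held 2 libraries, replicates 9 and 12, whose genotype label joins Setd2 and CD4 cre. Cre driven by Cd4 acts in the thymus before the CD4 and CD8 lineages part, so a deletion it makes is carried by both lineages and precedes the culture. The labels name no Cre or floxed allele in wild type cells, give no age, and differ on the stimulation, with 48 in the titles, 2 days in the design text and 3 days in the treatment label. No label says that replicates came from separate animals, so the spread behind each p-value is that of these samples and may be technical.

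When the receptor binds its ligand, the kinase Lck phosphorylates the receptor chains, and Zap70 docks there and phosphorylates the adaptors Lat and Lcp2 (SLP-76). On that scaffold phospholipase Plcg1 makes a pair of second messengers. Inositol trisphosphate releases calcium and sets free the NFAT transcription factors, and diacylglycerol recruits Rasgrp1, which loads Ras, and protein kinase C theta (Prkcq), which leads through Bcl10 and Malt1 to NF-kappa-B. Ubiquitin ligases, phosphatases, diacylglycerol kinases and Ras GTPase activating proteins reverse these steps.

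Each library held between 17284613 and 20418766 counts, and levels are given as CPM, counts scaled to library size after correction by the trimmed mean of M values (TMM). Setd2, which places trimethylation on lysine 36 of histone H3, stood at 157.2 and 174.5 CPM in wild type replicates 1 and 6 and at 127.2 and 112.9 CPM in knockout replicates 9 and 12 (log2 -0.47, SE 0.21, edgeR adjusted p = 0.421; -0.03 with a trend of counts on transcript length removed). A count over the whole gene does not check an allele that lacks some exons. All 8 T cell markers were present, with Cd4 at 464.1 and 575.0 CPM in the wild type pair and 403.6 and 444.5 in the knockout pair. Cd4, Cd3e, Cd3d, Cd3g, Cd5 and Cd6 were each lower in both knockout libraries, Cd2 overlapped between groups, and Thy1, the 1 marker of the 8 with a positive log2 fold change, had 781.4 and 608.2 CPM in the wild type pair against 1105 and 1258 in the other. Their summed level, between 2978 and 3556 CPM, therefore hides differences of opposite sign, and their part in the results was not tested. B cell markers were present too, with 8 of 8 above 1 CPM in every library and a summed CPM of 377.7 and 246.8 in the wild type and 286.9 and 505.8 in the knockout pair. Of these 8, 7 were highest in knockout replicate 12, and their part was not tested either. The summed CD8 T cell markers had 260.0 and 330.4 CPM in the wild type pair and 432.0 and 323.1 in the knockout pair, and the myeloid markers between 15.7 and 26.8 CPM. Natural killer cell markers had 90.4 and 105.6 in the wild type pair against 198.1 and 123.6 CPM, most of it Nkg7, and those of mast cells and basophils had 0.6 and 1.0 against 3.5 and 2.9 CPM. In bulk libraries fewer cells of a type and less RNA per cell cannot be told apart.

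Across the 44 genes the knockout libraries held less of some activators and of some inhibitors alike. The lower activators were the phospholipase Plcg1, the adaptor Grap2, the paracaspase Malt1, the Ras exchange factor Rasgrp1, the kinase Prkcq and the transcription factor Nfatc3, each between 1.54-fold and 1.81-fold lower at an unadjusted p under 0.05. The lower inhibitors at the same level were the lipid kinase Dgka and the adaptor Pag1, and Ptprc (CD45) was lower as well. No gene of the 44 passed the edgeR quasi-likelihood test after Benjamini-Hochberg adjustment over all genes, with adjusted p-values from 0.349 to 0.999. That test called 1 gene higher (0.0078%) and 0 genes lower (0%) among the 12816. With wild type replicate 1 left out it called 98 higher and 70 lower, with replicate 6 left out 22 and 8, and with knockout replicate 12 left out 0 and 0, none of them among the 44.

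At an unadjusted p under 0.05, 6 of 29 activators and 2 of 13 inhibitors were lower, where 5.73% of all genes tested were. By the same measure 0 activators and 0 inhibitors were higher, against 6.23% of all genes. The median log2 fold change of knockout over wild type was -0.15 for activators and -0.30 for inhibitors, and -0.002 for all genes tested. The median of inhibitors was -0.47 without knockout replicate 9 and -0.13 without knockout replicate 12, while that of activators was -0.10 without wild type replicate 1 and -0.06 with a trend of counts on transcript length removed. Scaling by library size only gave -0.23 for activators and moved the median of all genes to -0.081. DESeq2, run on the same counts, called 1 member lower (Malt1, DESeq2 adjusted p = 0.0294) and 0 higher, where it called 0.804% of genes lower and 0.729% higher. limma-voom called 0 members. The unadjusted count of lower activators was 2 of 29 without wild type replicate 6 (Rasgrp1 and Malt1) and 2 without knockout replicate 12 (the same pair). Without wild type replicate 6, Tespa1 was higher at an unadjusted p under 0.05 (log2 1.25, edgeR adjusted p = 0.549). For inhibitors it was 1 of 13 without wild type replicate 6, 4 without knockout replicate 9 and 0 without knockout replicate 12.

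The knockout pair lay below the wild type pair for 13 of 29 activators (44.8%) and 7 of 13 inhibitors (53.8%), beside 24.3% of all genes. The opposite order held for 3 activators and 0 inhibitors, beside 25.4% of all genes, and the groups overlapped in the remaining 13 activators and 6 inhibitors. Knockout replicate 12 held the lowest level of 52.3% of the 44 genes, against 34.4% of all genes tested. Wild type replicate 6 held the highest level of 47.7%, against 32.8% of all genes. The median gap between the 2 libraries of a group was 0.15 on the log2 scale in wild type and 0.34 in knockout cells, so the knockout pair was the less even of the groups for these genes. For the 61 other pathway genes listed further on, the gaps were 0.20 and 0.26, and the gap was not computed over all genes.

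**Figure D1:**
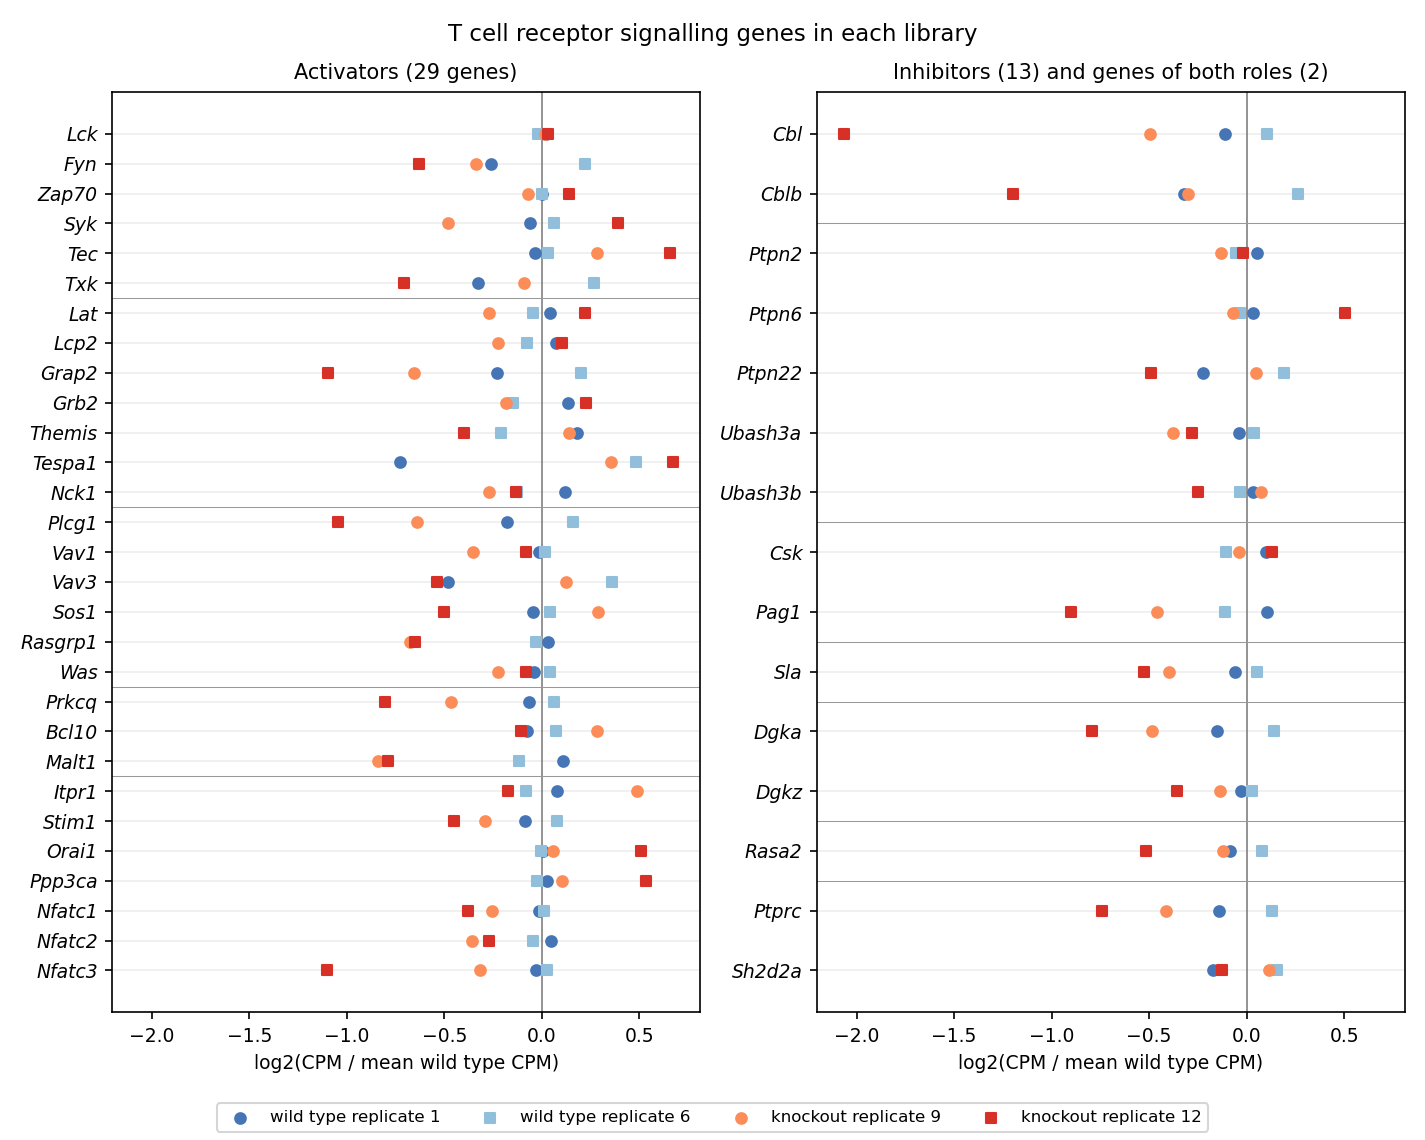
Level of each gene in each of the 4 libraries, as log2 of its CPM over the mean of the wild type libraries (x axis), with activators on the left and inhibitors and genes of both roles on the right, in blocks by role. Each symbol is 1 library; knockout symbols lie left of both wild type symbols for 13 activators and 7 inhibitors, and the knockout replicate 12 symbol of Cbl lies farthest left.

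**Figure D2:**
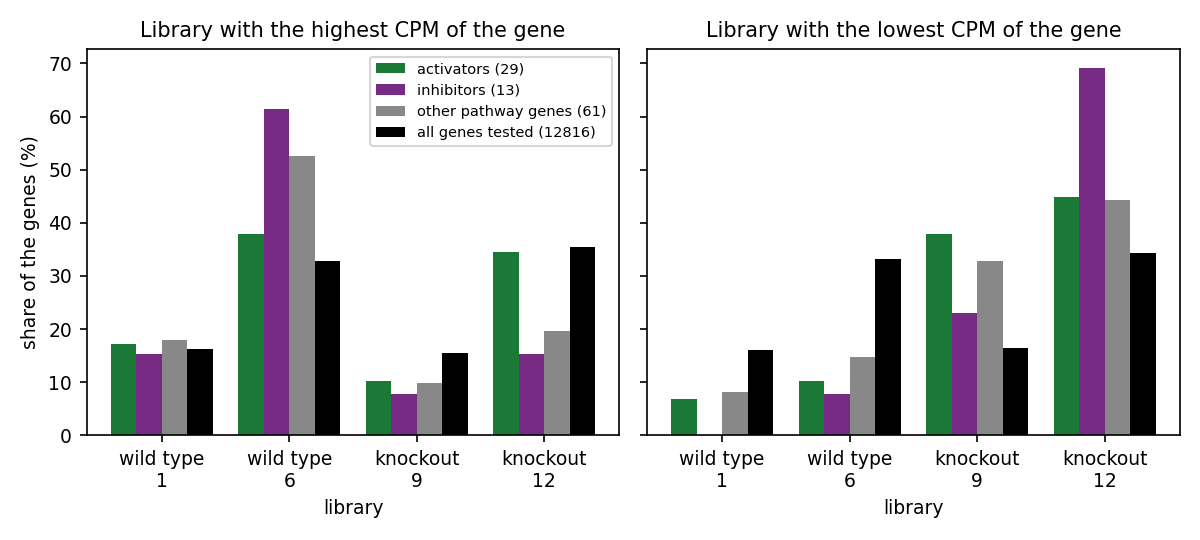
Share of genes (y axis, percent) whose highest (left) or lowest (right) CPM was in a given library, for activators, inhibitors, other pathway genes and all genes tested. Bars start at 0; knockout replicate 12 had the lowest level of 44.8% of activators and 69.2% of inhibitors, against 34.4% of all genes.

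Of 6 receptor-proximal kinases, Fyn was lower and Tec higher in both knockout libraries, and the other 4 overlapped between groups. By the same order 24.3% of all genes tested were lower and 25.4% higher. Per gene length, on the FPKM scale, Lck was the most abundant kinase at 207.9 and 212.8 FPKM in wild type and 206.8 and 200.2 FPKM in knockout libraries. In CPM Lck stood at 431.4 and 419.3 in wild type and 429.8 and 434.7 in knockout libraries, with log2 0.02 (SE 0.20) for knockout over wild type. The groups overlapped, and the difference was smaller than its standard error. Its sign turned to -0.05 when counts were scaled by library size only and to -0.09 with a trend of counts on transcript length removed. Fyn, the second Src family kinase of T cells, had 177.1 and 247.4 CPM in the wild type pair and 167.8 and 137.2 in the knockout pair (log2 -0.48, SE 0.25, edgeR adjusted p = 0.443). Its knockout values were both below its wild type values, but wild type replicate 1 was closer to knockout replicate 9 than to its own partner, and without wild type replicate 6 the log2 fold change was -0.22.

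The antigen receptor kinases Zap70 and Syk overlapped between the groups. Zap70, the kinase that binds the phosphorylated receptor chains, stood at 107.3 and 114.2 FPKM in wild type against 102.3 and 114.3 FPKM in knockout libraries. Syk, its relative that is best known from B cells, had 59.2 and 64.4 CPM in the wild type pair and 44.3 and 81.1 in the knockout pair. Knockout replicate 12 was the highest library for Syk and, at 505.8 CPM, for the summed B cell markers, but the order of the other libraries differed. Wild type replicate 6 was lowest for the markers (246.8 CPM) and second highest for Syk, and knockout replicate 9 was lowest for Syk with 286.9 CPM of the markers. The part of B cells in the level of Syk was not tested.

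Tec and Txk belong to the Tec family of kinases, which activate Plcg1. Tec was the least abundant of the 44 genes per length in every library but knockout replicate 12, at 2.55 and 2.82 FPKM in wild type libraries. In knockout replicate 12 Tec, at 3.93 FPKM, was above Sos1 (3.64), Pag1 (3.67) and Vav3 (3.74). In CPM it stood at 6.61 and 6.93 against 8.24 and 10.7 in knockout libraries (log2 0.48, SE 0.31, edgeR adjusted p = 0.5), with both knockout values above both wild type values. Txk had 37.2 and 56.1 CPM in the wild type pair and 43.7 and 28.5 in the knockout pair (log2 -0.37, SE 0.30, edgeR adjusted p = 0.577). Its groups overlapped, the pair within each group differing more than the group means. Its log2 fold change was -0.04 without wild type replicate 6, -0.09 without knockout replicate 12, and between -0.69 and -0.63 when either of the others was left out.

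Promoters of the members lower at an unadjusted p under 0.05 are shown where exactly 1 promoter was listed for the gene in RefSeq (build GRCm38.p6), which left 4. They are the starts of genes that were each lower in both knockout libraries, with edgeR adjusted p-values from 0.385 to 0.413. Each runs 5′ to 3′ on the strand of the gene, from 250 bases before the listed start to 50 after it, in lower case with motif matches in capitals. The intervals are chr15:80623233-80623532 (plus strand) for Grap2, chr2:160731060-160731359 (plus) for Plcg1, chr2:117342828-117343127 (minus) for Rasgrp1 and chr2:11172132-11172431 (plus) for Prkcq. The listed starts of Grap2 and Prkcq lie inside the gene's span, and those of Plcg1 and Rasgrp1 at its 5′ edge.
Grap2: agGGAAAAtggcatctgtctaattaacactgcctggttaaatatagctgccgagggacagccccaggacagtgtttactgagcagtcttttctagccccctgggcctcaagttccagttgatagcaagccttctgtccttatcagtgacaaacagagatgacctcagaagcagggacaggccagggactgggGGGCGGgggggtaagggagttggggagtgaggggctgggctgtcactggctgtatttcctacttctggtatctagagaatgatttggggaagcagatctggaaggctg
Plcg1: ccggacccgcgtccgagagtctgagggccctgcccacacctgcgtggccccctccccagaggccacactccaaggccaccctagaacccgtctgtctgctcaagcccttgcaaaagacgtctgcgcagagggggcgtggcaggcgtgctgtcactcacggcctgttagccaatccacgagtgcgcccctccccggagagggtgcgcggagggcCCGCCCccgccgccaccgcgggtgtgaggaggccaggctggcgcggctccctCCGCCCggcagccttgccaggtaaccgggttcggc
Rasgrp1: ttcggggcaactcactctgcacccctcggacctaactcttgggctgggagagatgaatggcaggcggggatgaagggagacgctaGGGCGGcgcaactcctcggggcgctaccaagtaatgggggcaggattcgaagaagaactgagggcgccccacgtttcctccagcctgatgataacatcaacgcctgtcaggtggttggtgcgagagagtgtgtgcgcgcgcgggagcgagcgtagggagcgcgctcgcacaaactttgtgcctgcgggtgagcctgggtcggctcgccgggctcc
Prkcq: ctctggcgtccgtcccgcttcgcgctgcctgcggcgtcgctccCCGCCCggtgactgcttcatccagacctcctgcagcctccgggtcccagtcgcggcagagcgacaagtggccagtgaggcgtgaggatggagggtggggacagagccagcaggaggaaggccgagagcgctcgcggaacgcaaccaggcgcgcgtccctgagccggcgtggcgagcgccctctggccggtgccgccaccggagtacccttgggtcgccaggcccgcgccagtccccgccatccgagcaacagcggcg
Motifs searched on both strands were the GC box GGGCGG, the ETS core CCGGAA, the RUNX site TGTGGT and the NFAT core GGAAAA, and the ETS and NFAT words can overlap. Plcg1 held 2 GC boxes, Rasgrp1 1, Prkcq 1 and Grap2 1 with 1 NFAT core. The CpG count was 27 in Plcg1, 26 in Rasgrp1, 37 in Prkcq and 2 in Grap2. Across the 55 promoters listed for 35 of the 44 genes, a GC box was in 47.3% (26), an ETS core in 9.09% (5), a RUNX site in 12.7% (7) and an NFAT core in 21.8% (12). Over all 32851 promoters of the table the shares were 35.7%, 14.9%, 16.8% and 23.4%. The members' promoters also differed in base composition, with a median GC content of 60.7% against 52.7% and a median of 9 CpG against 7. The part of composition in the motif shares was not tested. A match is a run of letters and not a bound site.

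Among 7 adaptors and scaffolds, Grap2 had the largest difference. Grap2 (GADS; gene 17444, GRCm38.p6 chromosome 15, 80572597 to 80652854) links Lat to Lcp2. It had 207.6 and 280.2 CPM in the wild type pair and 155.1 and 113.8 in the knockout pair. All 4 values were separated by group, with wild type replicate 6 highest and knockout replicate 12 lowest. The difference was 1.81-fold lower in knockout cells (log2 -0.86, SE 0.26, edgeR adjusted p = 0.386, DESeq2 adjusted p = 0.0748). Of the genes for the proteins it joins, Lat had 255.0 and 239.8 in the wild type pair against 205.1 and 288.0 CPM, and Lcp2 had 407.8 and 367.0 against 331.7 and 416.5 CPM. Both overlapped between groups, with log2 fold changes of -0.01 (SE 0.24) and -0.05 (SE 0.22). Of the other 4, Grb2, Themis and Tespa1 overlapped between groups and Nck1 was lower in both knockout libraries by 0.20 on the log2 scale, within 1 SE of 0.22. Tespa1 had the widest uncertainty of the class, at 7.12 and 16.4 CPM in the wild type pair and 15.1 and 18.8 in the knockout pair (SE 0.40).

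Plcg1 and Rasgrp1 differed most among the 6 exchange factors, phospholipase and actin effector genes. Plcg1 (gene 18803, chromosome 2, 160731310 to 160775760), which splits phosphatidylinositol bisphosphate, had 197.8 and 249.8 CPM in the wild type pair and 143.7 and 108.4 in the knockout pair. The difference was 1.78-fold (log2 -0.83, SE 0.24, edgeR adjusted p = 0.385). Rasgrp1 (gene 19419, chromosome 2, 117279983 to 117342877), the exchange factor that diacylglycerol recruits to Ras, had 188.6 and 180.7 in the wild type pair against 115.5 and 117.6 CPM. It was 1.58-fold lower (log2 -0.66, SE 0.20, edgeR adjusted p = 0.386). Its replicates were close together in each group, unlike those of Plcg1. The other exchange factor for Ras, Sos1, overlapped between groups at 47.9 and 50.8 against 60.3 and 34.8 CPM. Vav1 and Was, which lead to the actin cytoskeleton, were lower in both knockout libraries with log2 fold changes of -0.21 (SE 0.21) and -0.15 (SE 0.21), and Vav3 overlapped.

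In the arm to NF-kappa-B, Prkcq and Malt1 were lower and Bcl10 overlapped between groups. Prkcq (gene 18761, chromosome 2, 11171905 to 11301226) had 279.3 and 305.1 CPM in the wild type pair and 211.5 and 167.2 in the knockout pair. It was 1.54-fold lower (log2 -0.63, SE 0.22, edgeR adjusted p = 0.413). Malt1 (gene 240354, chromosome 18, 65430939 to 65478888), the protease that works with Bcl10, had 348.5 and 298.5 in the wild type pair against 180.8 and 187.4 CPM. Its difference was 1.76-fold (log2 -0.81, SE 0.21, edgeR adjusted p = 0.349) and lay between -0.92 and -0.70 when any 1 library was left out. Both knockout values of Malt1 lay within 10 CPM of each other, and DESeq2 called it (DESeq2 adjusted p = 0.0294). Bcl10 had 38.2 and 42.5 in the wild type pair against 49.0 and 37.4 CPM, with overlap and a log2 fold change of 0.10 (SE 0.23).

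Of 7 calcium and NFAT genes, 4 were lower and 2 higher in both knockout libraries and 1 overlapped between groups, with no gene past the adjusted threshold. Among all genes tested 24.3% were lower and 25.4% higher in both knockout libraries. Nfatc3 (gene 18021, chromosome 8, 106058818 to 106130537), a transcription factor that calcineurin moves to the nucleus, had 333.4 and 347.2 CPM in the wild type pair and 273.1 and 158.8 in the knockout pair. It was 1.58-fold lower (log2 -0.66, SE 0.28, edgeR adjusted p = 0.416), with the knockout pair far apart. Without knockout replicate 12 its log2 fold change was -0.31, and without knockout replicate 9 it was -1.08. Nfatc1 and Nfatc2, of the same family, and Stim1, the calcium sensor of the endoplasmic reticulum, were each lower in both knockout libraries with log2 fold changes of -0.32, -0.31 and -0.37 and adjusted p-values of at least 0.462. Orai1, the plasma membrane channel, had 60.1 and 59.7 in the wild type pair against 62.4 and 85.3 CPM, and Ppp3ca, a catalytic subunit of calcineurin, had 33.1 and 31.9 against 34.9 and 47.0 CPM. These 2 and Tec were the 3 genes with both knockout values above both wild type values. With the length trend removed the log2 fold changes of Nfatc2 and Orai1 were 0.02 and 0.00. Itpr1, the channel that releases stored calcium, overlapped at 87.7 and 78.5 against 116.6 and 73.8 CPM. Values for Bcl10, Lat, Lcp2, Sos1, Syk, Tespa1, Orai1, Ppp3ca and Itpr1, and for Sh2d2a, were added after they were seen.

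Both ubiquitin ligases were lowest in knockout replicate 12. Cbl (gene 12402, chromosome 9, 44142976 to 44234259) had 196.0 and 227.6 CPM in the wild type pair and 150.1 and 50.6 in the knockout pair, a 2.11-fold difference and the largest of the 44 (log2 -1.08, SE 0.46, edgeR adjusted p = 0.417). Its SE was also the largest. Without knockout replicate 12 the log2 fold change was -0.49, and without knockout replicate 9 it was -2.04, so that 1 library set much of the value. Cblb (gene 208650, chromosome 16, 52031230 to 52208047), whose loss lowers the need for costimulation, had 605.0 and 906.6 in the wild type pair against 614.5 and 330.0 CPM (log2 -0.68, SE 0.34, edgeR adjusted p = 0.433). Its groups overlapped, since knockout replicate 9 lay between the wild type libraries, and the log2 fold change was -0.30 without knockout replicate 12.

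Among 5 phosphatases and related genes the differences were small or uneven. Ptpn6 (SHP-1) had 290.6 and 278.0 CPM in the wild type pair and 271.2 and 402.7 in the knockout pair (log2 0.25, SE 0.25, edgeR adjusted p = 0.66). Knockout replicate 12 alone was high, and without it the log2 fold change was -0.06. Ubash3a (Sts-2), which dampens receptor-proximal kinases, had 91.8 and 96.8 in the wild type pair against 72.6 and 77.8 CPM (log2 -0.33, SE 0.20, edgeR adjusted p = 0.49), with the groups apart. Ptpn2, Ptpn22 and Ubash3b overlapped between groups, with log2 fold changes from -0.20 to -0.07.

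Of Csk, the kinase that inhibits Lck, and its membrane anchor Pag1, the anchor was lower. Pag1 (gene 94212, chromosome 3, 9687479 to 9833684) had 62.7 and 54.1 CPM in the wild type pair and 42.5 and 31.3 in the knockout pair (log2 -0.66, SE 0.24, edgeR adjusted p = 0.413). Csk overlapped, with a log2 fold change of 0.05 (SE 0.21). Sla, the adaptor SLAP that lowers receptor levels, had 341.9 and 369.8 in the wild type pair against 270.2 and 246.9 CPM (log2 -0.46, SE 0.20, edgeR adjusted p = 0.417), with the groups apart and the replicates close.

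The diacylglycerol kinases remove the messenger that recruits Rasgrp1 and Prkcq. Dgka (gene 13139, chromosome 10, 128720131 to 128745084) had 524.0 and 642.2 CPM in the wild type pair and 417.2 and 336.9 in the knockout pair, 1.55-fold lower (log2 -0.63, SE 0.22, edgeR adjusted p = 0.413). Dgkz was lower in both knockout libraries by 0.24 on the log2 scale (SE 0.21). Rasa2, which speeds GTP hydrolysis by Ras, had 65.3 and 73.2 in the wild type pair against 63.8 and 48.4 CPM (log2 -0.30, SE 0.23, edgeR adjusted p = 0.548). The knockout value nearest wild type was within 2 CPM of it. The log2 fold change was -0.12 without knockout replicate 12, -0.50 without knockout replicate 9 and -0.05 with the length trend removed.

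Ptprc, the phosphatase CD45 that both activates and restrains Src family kinases, stood at 300.1 and 380.9 FPKM in wild type and 247.7 and 188.2 FPKM in knockout libraries. Per length it was the most abundant of the 44 genes in every library but knockout replicate 12, where Lat (217.2 FPKM) and Lck (200.2 FPKM) were above it. In CPM Ptprc (gene 19264, chromosome 1, 138062859 to 138175756) stood at 1500.3 and 1808 against 1243 and 987.7 (log2 -0.57, SE 0.22, edgeR adjusted p = 0.413). The groups did not overlap. Sh2d2a, the T cell specific adaptor TSAd, overlapped at 403.9 and 506.1 against 492.2 and 417.5 CPM.

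**Figure D3:**
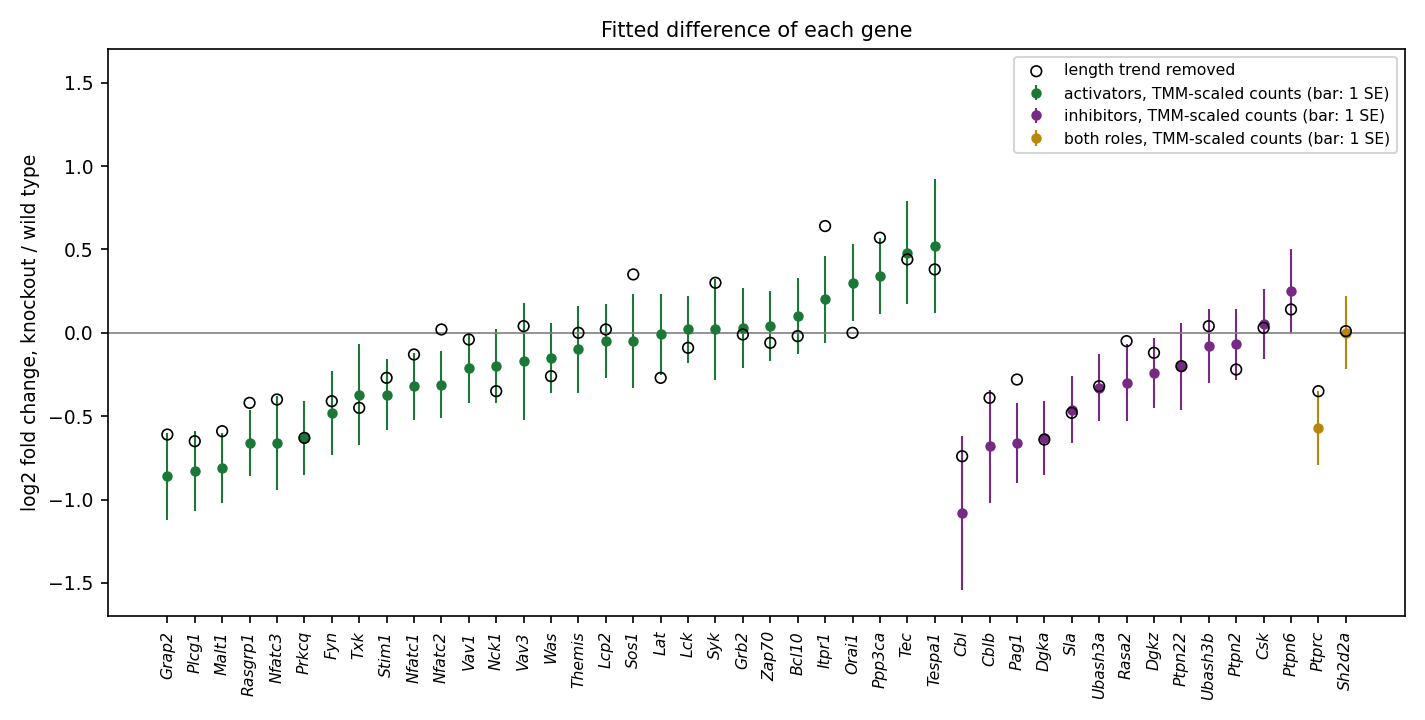
Log2 fold change of knockout over wild type (y axis) for each gene, ordered within activators, inhibitors and genes of both roles. Filled points are the edgeR estimates with bars of 1 SE, open circles are the values with the length trend removed; Cbl has the lowest estimate, -1.08, and the longest bar.

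Close relatives were compared as the ratio of their FPKM values within a library, which removes the library's depth. The ratio does not remove a trend of counts on transcript length that differs between libraries, and the part of such a trend was not tested. Lck over Fyn was 4.07 and 2.81 in wild type and 4.27 and 5.32 in knockout libraries. Tec over Txk was 0.156 and 0.108 against 0.159 and 0.33, and Nfatc1 over Nfatc3 was 1.07 and 1.05 against 1.11 and 1.75. These 3 ratios were higher in both knockout libraries, but for each of them the knockout replicate 9 value was close to a wild type value. Cbl over Cblb was 0.229 and 0.182 in wild type against 0.174 and 0.108 in knockout libraries, and Dgka over Dgkz was 2.0 and 2.42 against 1.75 and 1.58, both lower in both knockout libraries. For Cbl over Cblb the knockout replicate 9 value was likewise close to that of wild type replicate 6. Zap70 over Syk, Ubash3a over Ubash3b, Vav1 over Vav3 and Nfatc1 over Nfatc2 overlapped. With 2 libraries per group the smallest two-sided exact permutation p is 0.333, so no ratio was tested.

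**Figure D4:**
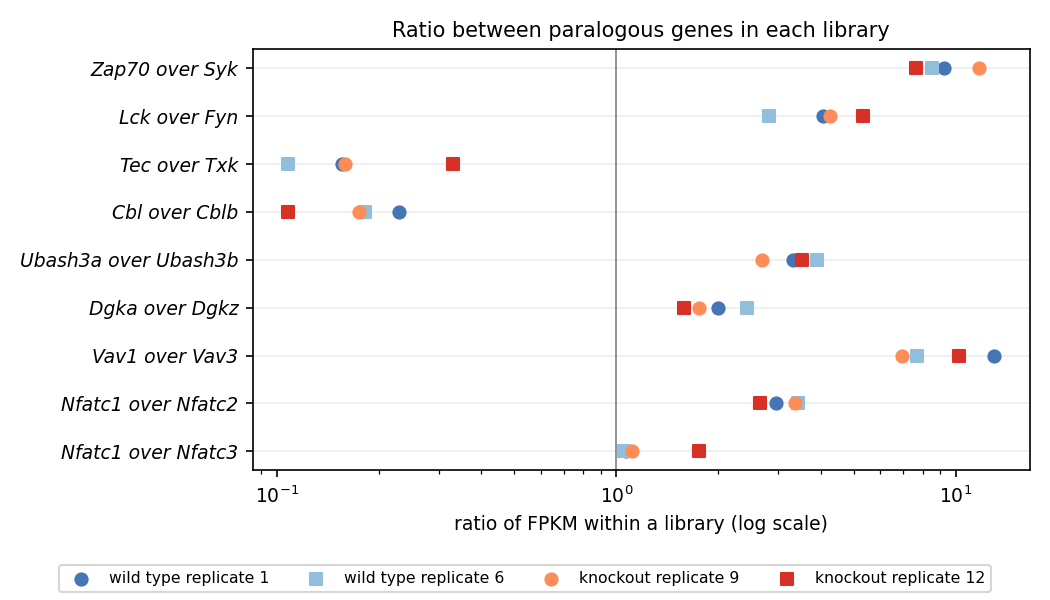
Ratio of FPKM between relatives (x axis, log scale) in each library, 1 symbol per library. Knockout replicate 12 is at an end of the range for 7 of the 9 pairs, such as 5.32 for Lck over Fyn and 0.108 for Cbl over Cblb.

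The fold changes followed transcript length in these libraries. Effective length, as implied by the deposited count and FPKM, had a Spearman rank correlation of -0.51 with the log2 fold change over the 44 genes and of -0.40 over 12791 genes, given as a description since genes share libraries. Among all genes the median was 0.26 under 2 kb, 0.00 from 2 to 4 kb, -0.21 from 4 to 6 kb and -0.38 over 6 kb. The 44 genes had medians of 0.05 (6 genes), -0.13 (20), -0.32 (11) and -0.66 (7) in the same classes, in each class below the median of all genes. Taken apart, the 4 activators over 6 kb had a median of -0.18, above that of all genes, and the 3 inhibitors -0.68. Activators in the other classes (5, 11 and 9 genes) and inhibitors in every class had medians below that of all genes. The inhibitors numbered 1, 8, 1 and 3 from the shortest class to the longest. Their values under 2 kb and from 4 to 6 kb are thus each that of 1 gene. With the trend removed from every library the median was -0.06 for activators and -0.22 for inhibitors. Plcg1 (-0.65), Grap2 (-0.61), Prkcq (-0.63), Malt1 (-0.59), Dgka (-0.64) and Sla (-0.48) were then lower at an unadjusted p under 0.05, and Rasgrp1 (-0.42), Nfatc3 (-0.40), Pag1 (-0.28) and Ptprc (-0.35) were not. Itpr1, whose effective length of 9960 bases was the longest of the 44, was then higher at an unadjusted p under 0.05 (0.64, edgeR adjusted p = 0.372). Of the 44 genes, 6 were thus lower and 1 higher, beside 670 lower and 748 higher of the 12791 genes in that fit. The part of the trend in the members' differences was not tested or separated from that of the genotype. Length also went with differences inside the knockout pair. The 7 members over 6 kb except Nfatc2 were lower in knockout replicate 12 than in 9, such as Cbl (50.6 against 150.1 CPM). The 6 members under 2 kb except Bcl10 were higher, such as Lat (288.0 against 205.1 CPM).

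**Figure D5:**
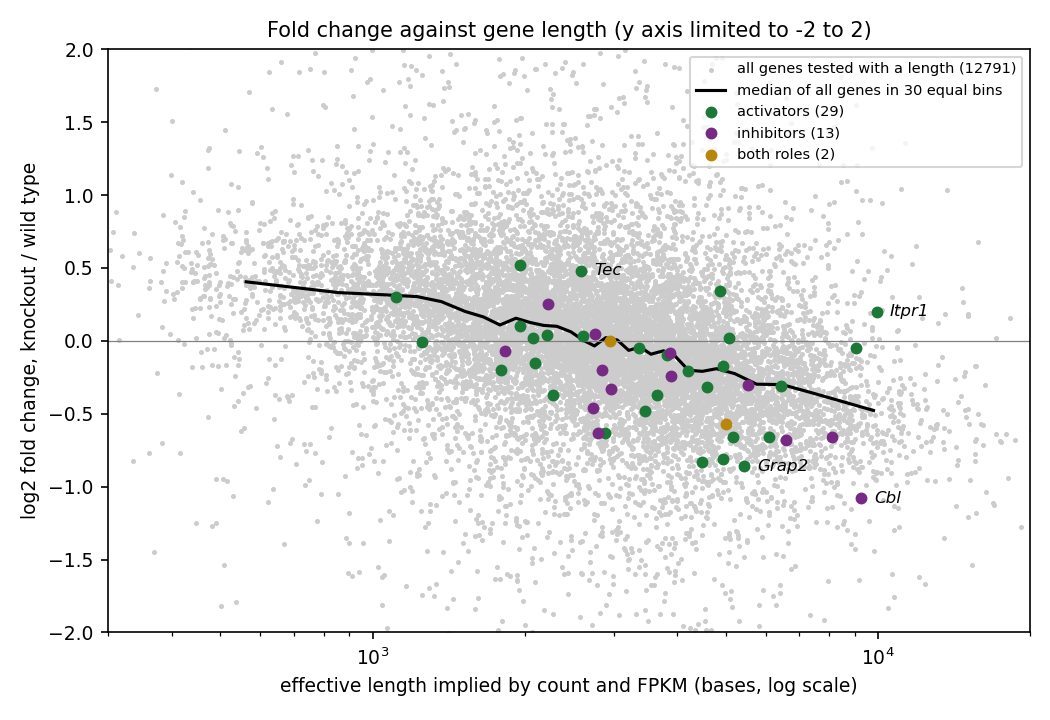
Log2 fold change (y axis, limited to -2 to 2) against effective length in bases (x axis, log scale) for all 12791 genes with a length (grey), the 44 genes (coloured by role) and the median of all genes in bins of equal size (line). The line falls with length, and Grap2 and Cbl lie below it while Itpr1 lies above.

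Effective length itself was compared as a rough sign of which transcripts were counted, a measure chosen after values were seen. Of the 44 genes, 2 were longer in both knockout libraries with means over 5% apart, Themis (3705 and 3630 against 3947 and 4569 bases) and Rasa2 (5446 and 5405 against 5642 and 5772 bases), beside 3.6% of 10059 genes. Shorter by the same rule were Ptpn2 (1846 and 1927 against 1808 and 1636 bases) and Sh2d2a (3010 and 3183 against 2889 and 2661 bases), beside 4.6% of genes. These shares of the members are close to those of all genes.

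A list of 61 other genes of the pathway, none of them among the 44, was read the same way. All 61 were tested, with a median log2 fold change of -0.26, and 10 were lower and 1 higher at an unadjusted p under 0.05, beside 5.73% and 6.23% of all genes. Without wild type replicate 6 the lower count was 2, and without knockout replicate 12 it was 6. DESeq2 called 2 of them lower, beside 0.804% of all genes. These were Fyb (ADAP), an adaptor that binds Lcp2, and Rasa3, which inactivates Ras and Rap. Fyb had 384.8 and 528.0 CPM in the wild type pair and 259.6 and 214.6 in the knockout pair (log2 -0.95, SE 0.24, edgeR adjusted p = 0.346, DESeq2 adjusted p = 0.0219). Rasa3 had 248.2 and 322.3 in the wild type pair against 171.1 and 126.7 CPM (log2 -0.94, SE 0.25, edgeR adjusted p = 0.354, DESeq2 adjusted p = 0.0303). The other lower genes by the smallest p were Lax1 (log2 -0.75), Rasa1 (-0.77), Carmil2 (-0.68), Cd3g (-0.59), Itpkb (-0.58), Itpr2 (-0.58) and Itpr3 (-0.57). Cd247 (-0.48), the tenth lower gene, was named after its value was seen. Hras was the 1 higher gene at 28.4 and 20.8 against 33.3 and 52.3 CPM (log2 0.80, SE 0.29, edgeR adjusted p = 0.413). Its log2 fold change was 0.44 without knockout replicate 12 and 1.11 without knockout replicate 9. With the length trend removed the median of the list was -0.11, and 12 of the 61 genes were lower and 3 higher at an unadjusted p under 0.05. In that fit 670 of all 12791 genes were lower and 748 higher at the same level. Itpr2 and Itpr3 then stood at -0.06 and -0.09, and Fyb, Cd3g and Lax1 at -0.90, -0.89 and -0.82.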

How the data were processed

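RNA-seq of 4 libraries, 2 wild type and 2 Setd2 knockout, gave a deposited table of 18560 genes. Per the submitters' processing notes the authors used Bowtie2 and RSEM with builds GRCm38.p6 and mm10. Versions, settings and strandedness: not given in the sources used here. Deposited by the authors were expected counts, RSEM estimates that share ambiguous reads among genes and need not be whole, which were rounded to whole numbers here. The authors also deposited an expression value whose header names no unit, taken as FPKM because of the gene lengths it implies and used without TMM scaling. Another 4 columns, averages per group, were left out.

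filterByExpr at a minimum count of 10 left 12816 genes. TMM factors ranged from 0.949 in knockout replicate 12 to 1.056 in wild type replicate 6. Groups followed the genotype label and were compared, without covariates, by the two-sided quasi-likelihood test of edgeR 4.0.16 (limma 3.58.1, R 4.3.3) with Benjamini-Hochberg adjustment over all genes and a threshold of 0.05. The fit had 2 residual and 5.74 prior degrees of freedom and a common dispersion of 0.0678, and the SE was taken from the F statistic. The test was checked on simulated data. Totals per library ranged from 17284613 to 20418766, and the lowest count of a member in a library was 130. Library pairs differed beyond sampling noise (chi-square per degree of freedom 29.7 to 162). The lowest value, 29.7, was that of wild type replicate 1 with knockout replicate 9, a pair that crosses the groups. The value was 45.0 within the wild type pair and 51.6 within the knockout pair.

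Members were named with every library's value if their unadjusted p was under 0.05 or any tool called them, otherwise the 2 of smallest p of each role class, and both of a pair of relatives with opposite signs. Of the other pathway genes at most 10 by smallest p were named. Members, lists and rules were chosen with earlier results of these data known. Alternatives were DESeq2 1.42.0 and limma-voom, other scalings, other filters, removal of a loess trend (span 0.4) of log count on log effective length, and leaving out each library. Coordinates are RefSeq GRCm38.p6, matched by gene ID for all 44 members.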

Additional observations from a re-analysis of the deposited data

How the results depend on the processing

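No paired analysis was possible because no replicate number (1 and 6, 9 and 12) occurs in both groups. Over all genes, where edgeR called 1 gene higher and 0 lower, DESeq2 called 88 and 97 and edgeR without a filter 48 and 33. Leaving out 1 library gave between 0 and 98 genes higher and between 0 and 70 lower, with the largest counts (98 and 70) without wild type replicate 1. DESeq2 called 1 activator and 2 other pathway genes lower. The unadjusted count of lower activators, 6, was between 2 and 6 when 1 library was left out. For inhibitors, 2, it was between 0 and 4, 4 with upper-quartile factors and 5 with DESeq2, and for other pathway genes, 10, it was between 2 and 12. The median log2 fold change of activators, -0.15, was -0.23 with library size only, which moved the median of all genes to -0.081, -0.06 with the length trend removed, and between -0.22 and -0.10 when 1 library was left out. That of inhibitors, -0.30, was between -0.47 (without knockout replicate 9) and -0.13 (without knockout replicate 12). The sign turned for Ptpn6 without knockout replicate 12 (-0.06, the range over libraries left out being -0.06 to 0.53) and for Lck with library size only (-0.05) and with the length trend removed (-0.09). Of 228 values for 19 members, 3 turned in sign and 1 (Malt1 in DESeq2) passed the threshold. That the rest stayed short of it says little about stability, since no member was near it in the edgeR fit, and sizes moved widely when 1 library was left out, for Cbl between -2.04 and -0.49 and for Txk between -0.69 and -0.04. Fits that leave out a library assume that the lone one varies like the other group. The lowest count of any of the 44 genes in a library was 130, for Tec, so depth left no member near 0.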
